A study of Mus musculus with 6 samples.

Results

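The genes described here encode the ULK initiation complex of autophagy and the ATG9-ATG2-WIPI machinery that supplies membrane to the growing autophagosome. The 10 genes were found by their symbols in the deposited table, with 1 row each out of 26898: Ulk1, Ulk2, Atg13, Atg101, Rb1cc1, Atg9a, Atg2a, Atg2b, Wipi1 and Wipi2. To investigate what loss of KANSL1, a subunit of a chromatin-modifying complex, does to gene expression, RNA of primary mouse embryonic fibroblasts (MEFs, connective tissue cells cultured directly from embryos) was sequenced. The WT group (WT 4, WT 5 and WT 8) was Kansl1 fl/fl, with both Kansl1 alleles flanked by recombination sites. The knockout group (KO 3, KO 7 and KO 10) was Kansl1 fl/fl/CAG-cre and carried, besides the same alleles, a Cre recombinase driven by CAG, a promoter that is active in most cell types. All 6 cultures were of strain C57BL/6 and at passage 3 in medium with 10% serum by the labels (less than the cell culture methods of the study state). All 6 received 1 μM tamoxifen for 48 h, so exposure to tamoxifen is shared by both groups. The study describes the knockout as inducible by tamoxifen. Cre was present in the KO group alone, and effects of Cre and of Kansl1 loss cannot be told apart in these samples. The methods of the study count 3 mice in each group.

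Autophagy begins when the ULK kinases, held in a complex with the adaptors ATG13, ATG101 and FIP200 (the product of Rb1cc1), are released from inhibition by the growth-sensing kinase mTORC1 or activated by the energy-sensing kinase AMPK. Vesicles carrying ATG9A, a protein that moves lipids between the leaflets of a membrane, form the seed of the new membrane. ATG2 proteins then carry lipids to it from the endoplasmic reticulum, and WIPI proteins read the lipid PI3P and hold ATG2 and the conjugation machinery in place.

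In Kansl1 knockout MEFs, the transcripts of Atg13 and Atg9a fell to 58.6% and 59.3% of the WT mean. Ulk1 had the opposite sign, at 144% of the WT mean, but missed the threshold in the main analysis of deposited values. For the other 7 genes (Ulk2, Atg101, Rb1cc1, Atg2a, Atg2b, Wipi1 and Wipi2) the KO mean lay between 82.2% and 116% of the WT mean and no change was called. Expression was given as TPM (a measure corrected for transcript length, with an equal total in all samples). Genes were tested with limma on log2(TPM + 1), a scale that understates changes of genes with low expression, and were called at a Benjamini-Hochberg adjusted p-value under 0.005 with a log2 fold change above 0.5 or below -0.5. By this rule 2 of the 10 genes were called lower, beside 9.03% of the 14799 genes tested. With limma, 0 of the 10 were called higher, beside 1.64% of the genes tested, and limma voom called 1, Ulk1, beside 4.20%. At an unadjusted p under 0.05, 1 of the 10 was higher (Ulk1), beside 12.2% of the genes tested, and 3 were lower (Atg13, Atg9a and Atg101), beside 27.2%. All 10 genes passed the filter on low expression, a group mean of at least 1 TPM. The fold changes of the 10 genes had a median of -0.05 on the log2 scale, against -0.07 over all tested genes. In bulk RNA, fewer cells of a type and less RNA per cell cannot be told apart.

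The libraries were first checked against their labels. Kansl1 fell in the KO samples, at 14.6 ± 1.04 TPM (SD, n = 3) against 26.6 ± 2.06 TPM in the WT samples, with a log2 fold change of -0.82 (SE 0.109, adjusted p = 0.000859). These values sum all exons of the gene, so exons removed by Cre and exons left in place are not separated. Reads recovered from the TPM values numbered 17655495 in KO 3, 27718259 in KO 7 and between 22812595 and 24263082 in the other 4 samples. Of 10 fibroblast markers, 9 reached 1 TPM in every sample, and S100a4 did not. WT 4 had the lowest Col1a1 (3080 TPM, against 4195 to 5809 TPM in the other samples) and Col3a1 (164 against 225 to 402 TPM). It also had the lowest Dcn (2.26 against 4.45 to 7.92 TPM), but the highest Vim (2522 against 2212 to 2419 TPM). The part of this difference in the results was not tested. Of 8 macrophage markers, 5 (Cd68, Adgre1, Csf1r, Mrc1 and Lyz2) were higher in every KO sample than in every WT sample, which held for 13.3% of all tested genes, and Lyz2 was called higher. The 8 summed to between 33.9 and 38.2 TPM in WT and to between 70.8 TPM in KO 3 and 143 TPM in KO 10. Adgre1 lay between 0.343 and 1.14 TPM in WT and between 1.61 and 2.42 TPM in KO, and Ptprc and Itgam, both highest in KO 10, were under 1 TPM in all 6 samples. The part of macrophage RNA in the results was not tested. Of 20 markers of endothelial, epithelial, skeletal muscle and neural cells, limma and limma voom each called 0. At an unadjusted limma p under 0.05, 3 were higher and 0 lower, beside 12.2% and 27.2% of all tested genes. Of the 20, 10 were under 1 TPM in all samples, among them Pecam1, Epcam and Myod1, and 7 reached 1 TPM in every sample, among them Krt18 (38.6 to 63.8 TPM), Acta1 (249 to 363 TPM) and Nes (125 to 177 TPM). Every KO sample lay above every WT sample for 3 of the 20 (Krt18, Kdr and Pecam1), beside 13.3% of all tested genes. The part of these cell types in the results was not tested either. A single RNA, which has no symbol in the table, held between 15.5% of TPM in WT 4 and 25.6% in KO 3, and so lowered the TPM of all other genes by different amounts. For that reason each result was also computed after median-of-ratios scaling, under which the median fold change over all tested genes rose by 0.09 on the log2 scale.

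The promoters of the 3 genes with the largest differences are shown first, because Atg13 and Atg9a each share a start region with another gene. The bases are those of RefSeq on build GRCm38.p6 (mm10), printed 5′ to 3′ on the strand of the gene. Only bases upstream of both the RefSeq start and the GENCODE start are given. Capitals mark matches to GGGCGG or its reverse complement CCGCCC, the core letters bound by SP and KLF factors.
Atg13, chr2:91710593-91710842, minus strand: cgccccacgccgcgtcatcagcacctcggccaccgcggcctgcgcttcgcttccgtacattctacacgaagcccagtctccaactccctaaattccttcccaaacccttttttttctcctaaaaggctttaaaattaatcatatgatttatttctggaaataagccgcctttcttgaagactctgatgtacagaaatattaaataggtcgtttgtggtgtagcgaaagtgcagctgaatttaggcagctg
Ulk1, chr5:110810098-110810331, minus strand: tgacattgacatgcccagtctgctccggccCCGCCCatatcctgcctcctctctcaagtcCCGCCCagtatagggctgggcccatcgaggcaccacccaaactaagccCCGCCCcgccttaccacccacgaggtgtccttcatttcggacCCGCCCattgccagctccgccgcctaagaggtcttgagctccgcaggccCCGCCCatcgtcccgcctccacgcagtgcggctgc
Atg9a, chr1:75192197-75192260, minus strand: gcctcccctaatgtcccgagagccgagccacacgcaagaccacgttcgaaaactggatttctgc
The Ulk1 window held 5 such matches, with first bases at -220, -190, -142, -100 and -51 from the RefSeq start. The Atg13 and Atg9a windows held none, and no match says only that these letters are absent from the window.

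RefSeq windows of 300 bases (250 before to 50 after the start) were found for 9 of the 10 genes. Rb1cc1 had no entry in the set of windows used here. GGGCGG was present, on either strand, in 5 of the 9 windows (Ulk1, Ulk2, Wipi1, Wipi2 and Atg2b) and in 35.7% of all 32851 promoter windows. The matches numbered 5 for Ulk1, 1 for Ulk2, 9 for Wipi1, 2 for Wipi2 and 3 for Atg2b. The CCAAT box (CCAAT) was found in 2 of the 9 (Atg9a and Atg2a) and in 37.4% of all windows. The 3 matches of Atg9a lie between its GENCODE start and its RefSeq start, and so outside the bases printed above. The ETS letters CCGGAAG were found in 1 of the 9 (Atg101) against 8.86% of all, and the NRF1-like letters GCATGCGC in 1 of the 9 (Wipi2) against 2.71% of all. None of the 9 windows held the E-box CACGTG (7.15% of all windows), the CLEAR-like letters TCACGTGA that contain it (0.974%), the YY1-like letters AAGATGGC (2.75%) or the TATA letters TATAAA (13.6%). Atg13 was the only one of the 9 with no match to any of the 8 motifs. Its window also had the lowest share of G and C, 49.0%, while the other 8 lay between 59.3% and 74.7% and the median of all windows was 52.7%.

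**Figure D1:**
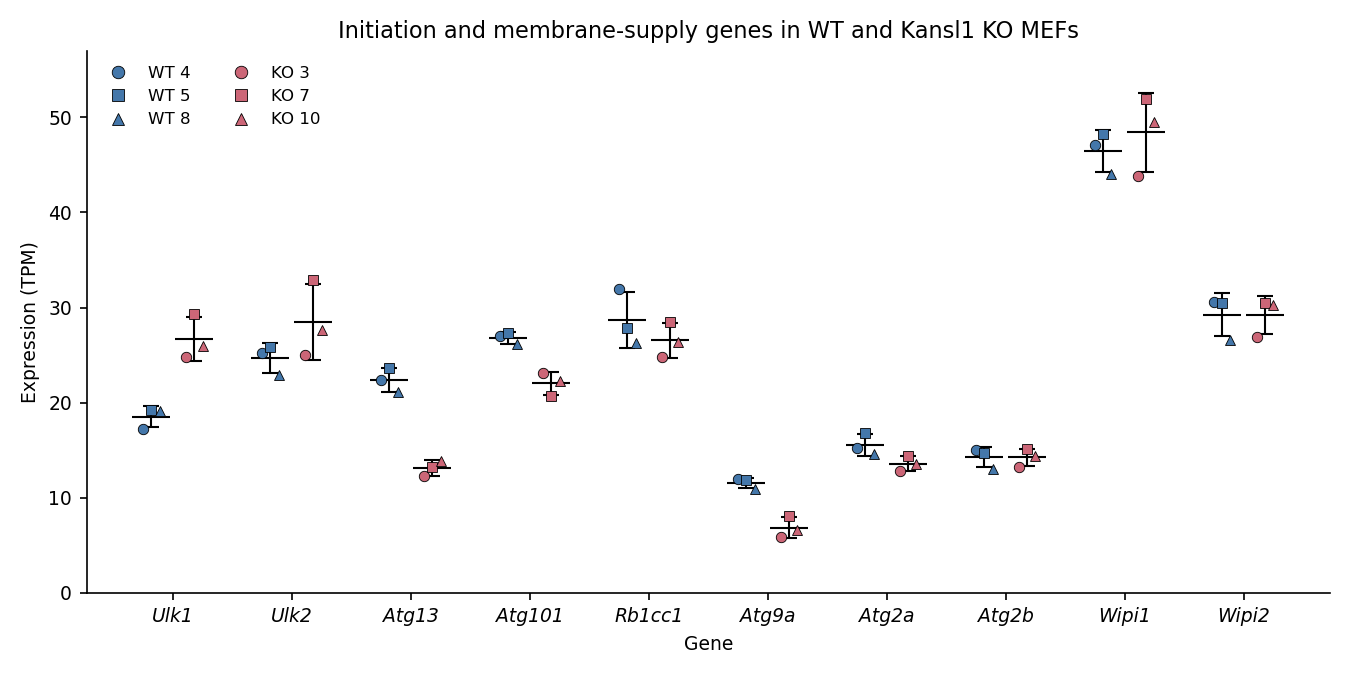
Expression of the 10 genes in TPM on the vertical axis, with 1 point per sample, blue for WT and red for KO; horizontal bars are group means and error bars are SD (n = 3). KO points lie apart from WT points for Ulk1 (higher) and for Atg13, Atg101, Atg9a and Atg2a (lower), and Wipi1 has the highest level in both groups.

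Among these genes Wipi1 was the most abundant and Atg9a the least abundant in both groups. In WT the order of mean TPM was Wipi1 (46.4), Wipi2 (29.2), Rb1cc1 (28.7), Atg101 (26.8), Ulk2 (24.7), Atg13 (22.4), Ulk1 (18.5), Atg2a (15.6), Atg2b (14.2) and Atg9a (11.6). Neighbours in this order overlapped for Wipi2 and Rb1cc1, Rb1cc1 and Atg101, Ulk2 and Atg13, and Atg2a and Atg2b. In KO, Ulk1 stood in the 4th place of the order with 26.7 TPM and Atg13 in the 9th with 13.1 TPM. There, neighbours overlapped for Wipi2 and Ulk2, Ulk2 and Ulk1, Ulk1 and Rb1cc1, Atg2b and Atg2a, and Atg2a and Atg13. Taken over all 6 samples, the mean levels ranged from percentile 45.8 (Atg9a) to percentile 82.2 (Wipi1) of the tested genes.

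The ULK kinases were examined first. Ulk1 (ENSMUSG00000029512.11, chr5:110784488-110810097, minus strand), the kinase that starts autophagosome formation, measured 17.3, 19.2 and 19.1 TPM in WT 4, WT 5 and WT 8. It measured 24.8, 29.3 and 25.9 TPM in KO 3, KO 7 and KO 10. The KO samples all lay above the WT samples. Its log2 fold change was 0.50 (SE 0.109, 95% interval 0.26 to 0.75), just past the fold limit, and the adjusted p of 0.00821 missed the threshold. After median-of-ratios scaling the fold change was 0.60 and Ulk1 was called higher (adjusted p = 0.00253), as it was with limma voom on recovered reads (0.62, adjusted p = 0.000503) and when only genes with a group mean of at least 10 TPM were tested (0.50, adjusted p = 0.00199). Of all genes, 3.11% were called higher after scaling and 4.20% with voom. Leaving out any 1 sample gave fold changes from 0.44 to 0.55 and no call.

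Ulk2 (ENSMUSG00000004798.14, chr11:61775649-61855073, minus strand) encodes the second ULK kinase, which can stand in for ULK1 in many cells. Its levels were 25.3, 25.9 and 22.9 TPM in WT 4, WT 5 and WT 8 and 25.1, 32.8 and 27.6 TPM in KO 3, KO 7 and KO 10. The groups overlapped, since KO 3 lay within the WT range. This gave a log2 fold change of 0.19 (SE 0.122, 95% interval -0.08 to 0.47, adjusted p = 0.267). With 1 sample left out, the fold change ranged from 0.09 (without KO 7) to 0.28 (without KO 3). After scaling, the KO samples all lay above the WT samples, with a fold change of 0.29 (adjusted p = 0.00865) that stayed under the fold limit.

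Of the adaptors, Atg13 fell. ATG13 links the kinases to FIP200 and is the subunit through which nutrient signals are largely passed to the complex. Atg13 (ENSMUSG00000027244.14, chr2:91674618-91710576, minus strand) measured 22.3, 23.7 and 21.1 TPM in WT 4, WT 5 and WT 8. It measured 12.2, 13.2 and 13.9 TPM in KO 3, KO 7 and KO 10, on 389 to 558 recovered reads. The KO values formed a group well below the WT values, with a gap larger than the spread within either group. The log2 fold change was -0.73 (SE 0.106, 95% interval -0.97 to -0.49, adjusted p = 0.00126). The call was lost when WT 5 was left out (adjusted p = 0.00728) and when all 26898 genes were tested (adjusted p = 0.00562), with fold changes between -0.77 and -0.64 over all 12 alternatives.

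Atg101 (ENSMUSG00000037204.7, chr15:101284272-101290945, plus strand) encodes the partner that stabilises ATG13. Its levels were 27.0, 27.3 and 26.1 TPM in WT 4, WT 5 and WT 8 and 23.1, 20.7 and 22.2 TPM in KO 3, KO 7 and KO 10. The KO samples all lay below the WT samples in deposited TPM, but the groups overlapped after scaling. Its log2 fold change was -0.27 (SE 0.0978, 95% interval -0.49 to -0.05) and was not called (adjusted p = 0.0655). Rb1cc1 (ENSMUSG00000025907.14, chr1:6206197-6276648, plus strand), which encodes the scaffold FIP200, measured 31.9, 27.8 and 26.2 TPM in WT 4, WT 5 and WT 8 and 24.8, 28.5 and 26.4 TPM in KO 3, KO 7 and KO 10. These ranges overlapped, and the fold change was -0.10 (95% interval -0.36 to 0.15, adjusted p = 0.524). Of its exon bases, 558 (3.80%) are shared with the antisense gene 4732440D04Rik.

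The composition of the ULK complex transcripts was then compared within each sample, where the scaling of a sample has no effect. Atg13 made up 18.1%, 19.1% and 18.3% of the summed TPM of the 5 genes in WT 4, WT 5 and WT 8. In KO 3, KO 7 and KO 10 its share was 11.1%, 10.6% and 12.0%. Ulk1 made up 13.9%, 15.5% and 16.5% in the WT samples and 22.6%, 23.5% and 22.3% in the KO samples. Ulk2 made up 20.4%, 20.9% and 19.8% in the WT samples and 22.8%, 26.4% and 23.8% in the KO samples. Atg101 made up 22.2% ± 0.450 (SD, n = 3) in WT and 18.9% ± 2.17 in KO. The shares of the kinases were higher in every KO sample than in every WT sample and those of Atg13 and Atg101 lower. Shares of one sum move together, and after median-of-ratios scaling 27.3% of all tested genes were higher and 29.5% lower in every KO sample, so nothing is read from the number of shares that lay apart. The share of Rb1cc1 was 23.7% ± 1.86 (SD, n = 3) in WT and 22.7% ± 0.175 in KO, and the 5 genes summed to 121 ± 4.86 TPM in WT and 117 ± 7.34 TPM in KO. The shares are a description of the values above and carry no test of their own.

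**Figure D2:**
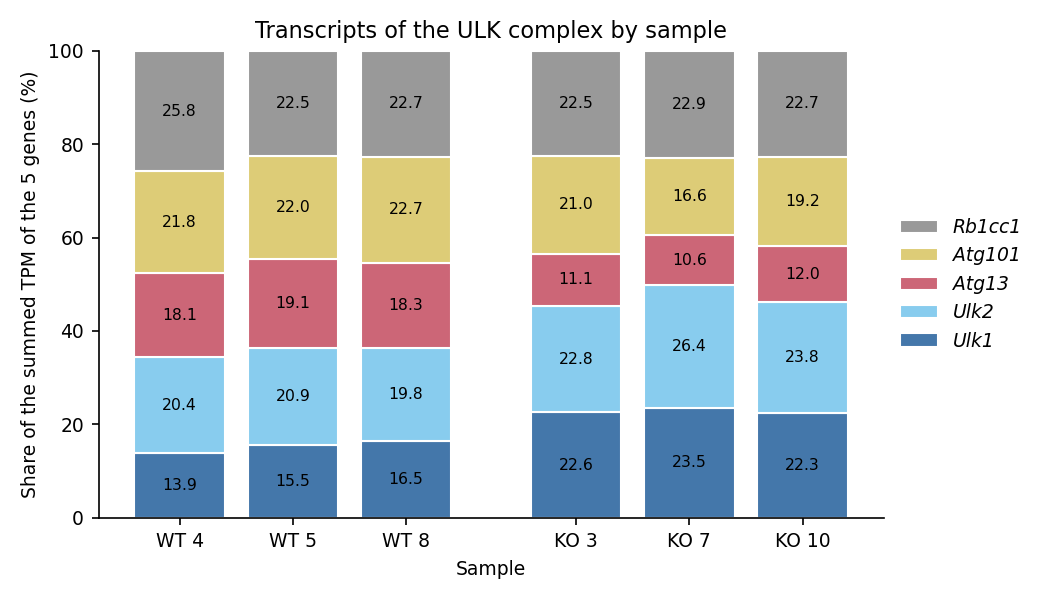
Share of each of the 5 ULK complex genes in their summed TPM, in percent, with 1 stacked bar per sample (3 WT, then 3 KO). Atg13 holds 18.1% to 19.1% of the sum in WT and 10.6% to 12.0% in KO, while Ulk1 holds 13.9% to 16.5% in WT and 22.3% to 23.5% in KO.

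Membrane supply begins with ATG9A. Atg9a (ENSMUSG00000033124.15, chr1:75180860-75192196, minus strand) measured 12.0, 11.8 and 10.9 TPM in WT 4, WT 5 and WT 8. It measured 5.92, 8.08 and 6.57 TPM in KO 3, KO 7 and KO 10, on 248 to 451 recovered reads. All KO samples lay below all WT samples, and the KO values had a coefficient of variation of 16.2%, which scaling lowered to 8.33%. The log2 fold change was -0.69 (SE 0.132, 95% interval -0.98 to -0.39), with an adjusted p of 0.00469 that lay close to the threshold. The call was lost when WT 4, WT 5, WT 8, KO 3 or KO 10 was left out, with adjusted p-values from 0.0122 to 0.0198. It was also lost without a variance trend (adjusted p = 0.00774) and when all 26898 genes were tested (adjusted p = 0.0190). It held without KO 7, and over all 12 alternatives the adjusted p ranged from 0.000364 to 0.0198 and the fold change from -0.79 to -0.60. After scaling, the KO values were 6.72, 7.69 and 6.64 scaled TPM, the fold change was -0.60 and the adjusted p was 0.00137. Of the exon bases of Atg9a, 1832 (31.8%) are shared with Gm29253, a transcript of the same strand that was not analysed here, and reads from these bases cannot be told apart.

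The lipid transfer proteins ATG2A and ATG2B are products of related genes with overlapping roles. Atg2a (ENSMUSG00000024773.15, chr19:6241668-6262335, plus strand) measured 15.2, 16.9 and 14.6 TPM in WT 4, WT 5 and WT 8 and 12.8, 14.3 and 13.6 TPM in KO 3, KO 7 and KO 10. The KO samples lay just below the WT samples, and after scaling the groups overlapped. The log2 fold change was -0.18 (SE 0.109, 95% interval -0.43 to 0.06, adjusted p = 0.246). Atg2b (ENSMUSG00000041341.10, chr12:105616136-105685211, minus strand) measured 15.0, 14.7 and 13.0 TPM in WT 4, WT 5 and WT 8 and 13.2, 15.1 and 14.4 TPM in KO 3, KO 7 and KO 10. The groups overlapped almost fully, with a fold change of -0.00057 on deposited TPM and 0.09 after scaling, and an interval of -0.25 to 0.25 on deposited TPM (adjusted p = 0.998).

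Neither of the PI3P readers was called. Wipi1 (ENSMUSG00000041895.15, chr11:109573331-109611967, minus strand) measured 47.1, 48.3 and 44.0 TPM in WT 4, WT 5 and WT 8 and 43.8, 51.9 and 49.5 TPM in KO 3, KO 7 and KO 10. The WT range lay inside the KO range. With a log2 fold change of 0.06, no change was called (95% interval -0.17 to 0.29, adjusted p = 0.718). With 1 sample left out, the fold change ranged from 0.005 to 0.126. After scaling, the KO samples all lay above the WT samples, with a fold change of 0.15 under the fold limit (limma, adjusted p = 0.0294). Wipi2 (ENSMUSG00000029578.15, chr5:142627698-142670588, plus strand), whose product recruits the conjugation enzyme complex to the new membrane, measured 30.6, 30.5 and 26.6 TPM in WT 4, WT 5 and WT 8 and 26.9, 30.4 and 30.2 TPM in KO 3, KO 7 and KO 10. Here the groups overlapped almost fully, with a fold change of -0.0014 on deposited TPM and 0.09 after scaling, and an interval of -0.24 to 0.24 on deposited TPM (adjusted p = 0.994).

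**Figure D3:**
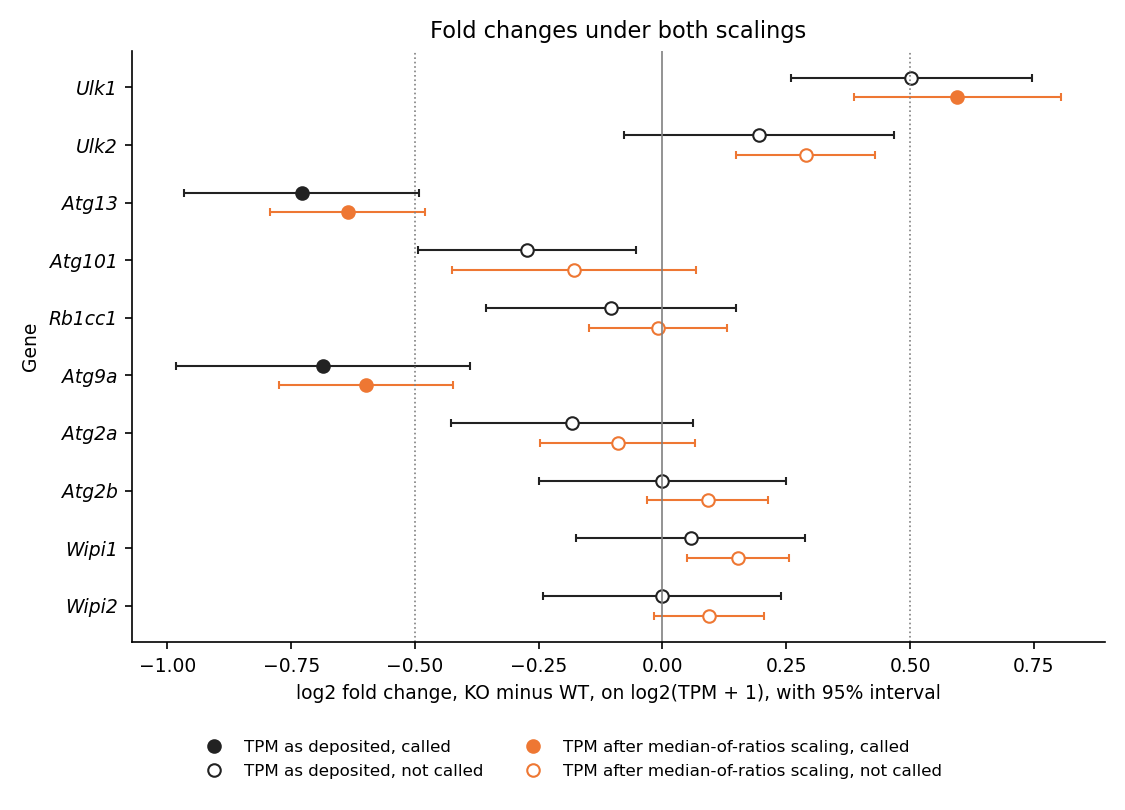
Log2 fold change of each gene, KO minus WT on log2(TPM + 1), with its 95% interval from limma, for deposited TPM (black) and TPM after median-of-ratios scaling (orange); filled points were called and dotted lines mark the fold limits. Atg13 and Atg9a are called lower under both scalings, Ulk1 is called higher only after scaling, and the intervals of the other 7 genes lie between -0.5 and 0.5.

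Across the 10 genes, the 95% interval lay wholly between -0.5 and 0.5 for 7, under both scalings. With 1 sample left out this held for 4 to 6 genes, with 4 (Rb1cc1, Atg2b, Wipi1 and Wipi2) without KO 10, and for these 4 it held in every alternative run. In deposited TPM, 4 of the 10 (Atg13, Atg101, Atg9a and Atg2a) had all KO samples below all WT samples, beside 29.9% of tested genes, and 1 (Ulk1) had all KO samples above, beside 13.3%. After scaling, 2 (Atg13 and Atg9a) had all KO samples below, beside 29.5%, and 5 (Ulk1, Ulk2, Atg2b, Wipi1 and Wipi2) had all KO samples above, beside 27.3%. The order of samples within a group also followed the scaling. In deposited TPM, KO 3 was the lowest KO sample for 9 of the 10 genes, and after scaling it was the lowest for 0. The median coefficient of variation among KO samples went from 6.93% to 3.76%.

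To compare related genes without regard to scaling, log2 ratios of TPM were formed within each sample for 4 pairs. The Ulk1/Ulk2 ratio was 0.683, 0.744 and 0.835 in WT 4, WT 5 and WT 8 and 0.991, 0.893 and 0.939 in KO 3, KO 7 and KO 10. The KO samples were all nearer to equal levels of the kinases, with a mean log2 difference between groups of 0.32. The Atg101/Atg13 ratio was 1.21, 1.15 and 1.24 in WT 4, WT 5 and WT 8 and 1.88, 1.57 and 1.60 in KO 3, KO 7 and KO 10, a log2 difference of 0.49. The Atg2a/Atg2b ratio was 1.02, 1.14 and 1.12 in the WT samples and 0.968, 0.949 and 0.948 in the KO samples, a log2 difference of -0.19. In these 3 pairs the groups did not overlap, and each gave p = 0.1 in a two-sided exact permutation test, which is the smallest p that 3 against 3 samples allow (0.133 after Benjamini-Hochberg adjustment over the 4 ratios). In that test, with 3 samples a group, no ratio could pass a threshold of 0.05. The Wipi1/Wipi2 ratio was 1.54, 1.58 and 1.65 in the WT samples and 1.63, 1.71 and 1.64 in the KO samples, and overlapped between groups (log2 difference 0.06, exact permutation p = 0.3).

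**Figure D4:**
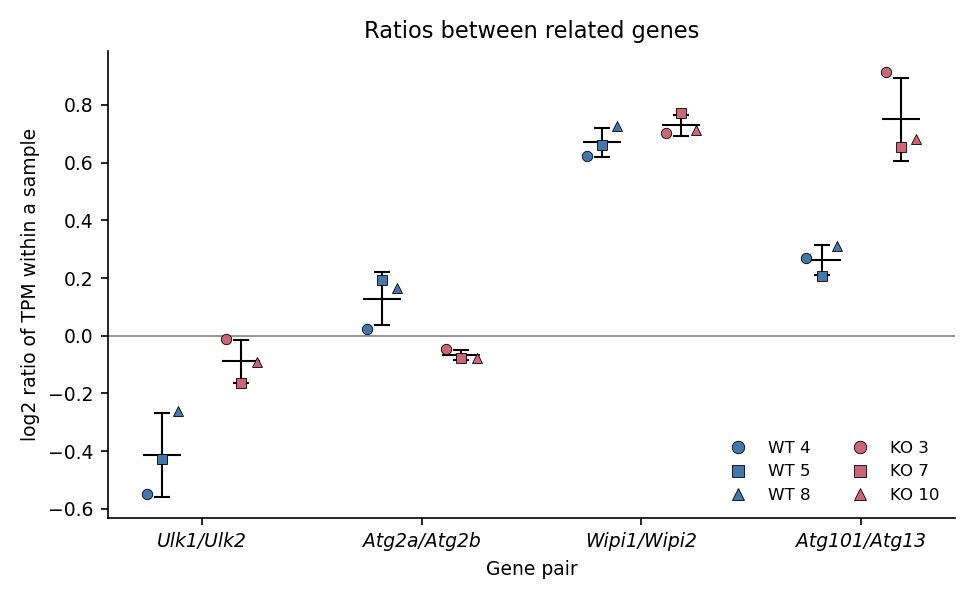
Log2 ratio of TPM between related genes within each sample, with 1 point per sample (blue for WT, red for KO), group means as horizontal bars and SD as error bars (n = 3). Ulk1/Ulk2 and Atg101/Atg13 are higher in every KO sample, Atg2a/Atg2b is lower in every KO sample, and Wipi1/Wipi2 overlaps between groups.

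The genes that start beside these genes on the opposite strand were also examined, by a search within 1000 bp that was added after the values had been seen. Harbi1 starts 276 bp from Atg13 and runs away from it, so that the Atg13 sequence printed above lies between both GENCODE starts. Harbi1 measured 3.11, 3.78 and 3.43 TPM in WT 4, WT 5 and WT 8 and 1.87, 2.84 and 2.24 TPM in KO 3, KO 7 and KO 10. All KO samples were below all WT samples, with a log2 fold change of -0.43 that was not called (SE 0.165, adjusted p = 0.0832). Ankzf1 starts inside the first exon of Atg9a, 45 bp from its start, and shares 46 exon bases with it. Ankzf1 measured 5.98, 7.45 and 6.11 TPM in the WT samples and 3.69, 4.70 and 4.99 TPM in the KO samples. Its fold change of -0.46 (SE 0.148, adjusted p = 0.0432) was not called either, though the groups did not overlap. All KO samples lay below all WT samples for 29.9% of all tested genes. Gskip starts 382 bp from Atg2b, with which it shares 383 exon bases, and had a fold change of 0.04 (adjusted p = 0.813). Whether the counting used strand is not given in the sources used here, so reads from bases shared with an opposite-strand gene cannot be assigned.

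Next, 55 further genes of the same pathway were counted, of which 52 passed the filter on low expression (Prkag3, Ulk4 and Ap4b1 did not). Of the 52, 5 were called lower and 0 higher by limma, with 11 lower and 9 higher at an unadjusted p under 0.05, where 27.2% of all tested genes were lower and 12.2% higher. After median-of-ratios scaling 5 were called lower and 2 higher, beside 9.91% and 3.11% of all genes. With limma voom on recovered reads 6 were called lower and 3 higher, beside 12.3% and 4.20% of all genes. The share called lower, 9.62%, lay near the 9.03% of all tested genes, and the median log2 fold change of the 52 was -0.08. Leaving out 1 sample left between 2 (without WT 5) and 4 (without KO 7) called lower. When all 26898 genes were tested, 1 of the 5 (Mtmr14) stayed called, and the adjusted p-values were 0.00564 for Tbc1d7, 0.00913 for Tsc2, 0.00872 for Klhl20 and 0.0106 for Traf6.

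In the group of mTORC1 and its control, 2 of 9 genes were called lower, beside 9.03% of all tested genes. At an unadjusted limma p under 0.05, 4 were lower and 1 higher, beside 27.2% and 12.2%. Scaling called 1 of the 9 lower and voom 2, beside 9.91% and 12.3% of all genes. TBC1D7 and TSC2 are subunits of the TSC complex, which switches off the mTORC1 activator Rheb. Tbc1d7 measured 2.34 ± 0.393 TPM (SD, n = 3) in KO against 6.74 ± 0.396 TPM in WT, a log2 fold change of -1.22 (SE 0.143, adjusted p = 0.000497). Tsc2 went from 23.4 ± 0.857 to 15.3 ± 1.13 TPM (fold change -0.58, adjusted p = 0.00321), a call lost when any 1 sample was left out (adjusted p from 0.00603 to 0.0182), without a variance trend (adjusted p = 0.00680) and after scaling, where the fold change was -0.49. Akt1s1, an mTORC1 subunit that restrains the kinase and the most abundant of the group, had 92.6 ± 5.86 TPM in WT and 119 ± 6.56 TPM in KO and was not called (fold change 0.36, adjusted p = 0.0223). Of 10 tested genes of AMPK and its upstream kinases, 0 were called in limma (all tested genes: 9.03% lower, 1.64% higher). At an unadjusted limma p under 0.05, 1 was lower and 1 higher, beside 27.2% and 12.2%. Scaling and voom each called 1 of the 10 higher, beside 3.11% and 4.20% of all genes. Cab39, a partner of the upstream kinase LKB1 and the gene with the highest mean over all samples, had 51.4 ± 5.19 TPM in WT and 50.6 ± 3.79 TPM in KO.

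Among ULK-related kinases and ULK regulators, 2 of 9 tested genes were called lower, beside 9.03% of all tested genes. At an unadjusted limma p under 0.05, 3 were lower and 0 higher, beside 27.2% and 12.2%. Scaling and voom each called 3 of the 9 lower, beside 9.91% and 12.3% of all genes. KLHL20 and TRAF6 are parts of ubiquitin ligases that act on ULK1, the former towards its degradation and the latter towards its stability. Klhl20 went from 8.84 ± 0.833 TPM to 4.38 ± 0.342 TPM (fold change -0.87, SE 0.128, adjusted p = 0.00130), a call lost without WT 5 (adjusted p = 0.00672). Traf6 went from 9.82 ± 0.678 TPM to 5.45 ± 0.456 TPM (fold change -0.75, SE 0.121, adjusted p = 0.00205). The Traf6 call was lost when WT 4, WT 5, WT 8, KO 3 or KO 10 was left out, with adjusted p-values from 0.00562 to 0.0116. Smcr8, a partner of C9ORF72 and the most abundant of the group, had 23.1 ± 1.04 TPM in WT and 22.8 ± 0.789 TPM in KO.

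Of 12 tested genes of ATG9 traffic, 0 were called in limma (all tested genes: 9.03% lower, 1.64% higher). At an unadjusted limma p under 0.05, 1 was lower and 4 were higher, beside 27.2% and 12.2%. Scaling called 1 of the 12 higher and voom 2, beside 3.11% and 4.20% of all genes. The most abundant, Sh3glb1, which encodes a membrane-bending protein of ATG9 vesicles, had 98.3 ± 13.7 TPM in WT and 92.3 ± 5.21 TPM in KO. Of 5 genes of endoplasmic reticulum scramblases and contacts, 0 were called under limma, scaling or voom. At an unadjusted limma p under 0.05, 0 were lower and 2 higher, beside 27.2% and 12.2% of all tested genes. Vmp1, a scramblase, had 146 ± 4.82 TPM in WT and 154 ± 12.7 TPM in KO. Among WIPI relatives, partners and PI3P phosphatases, 1 of 7 genes was called lower, beside 9.03% of all tested genes. At an unadjusted limma p under 0.05, 2 were lower and 1 higher, beside 27.2% and 12.2%. Scaling and voom each called 1 of the 7 lower, beside 9.91% and 12.3% of all genes. Mtmr14, which encodes a phosphatase that removes the lipid WIPI proteins read, went from 21.7 ± 2.01 TPM to 10.8 ± 0.663 TPM, with no overlap between groups. Its log2 fold change was -0.95 (SE 0.113, adjusted p = 0.000515), and it was called under every alternative run, including the test of all 26898 genes. Wdr45b, the most abundant of that group and a relative of the WIPI genes, had 41.4 ± 1.78 TPM in WT and 37.5 ± 4.14 TPM in KO (fold change -0.14, adjusted p = 0.373).

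**Figure D5:**
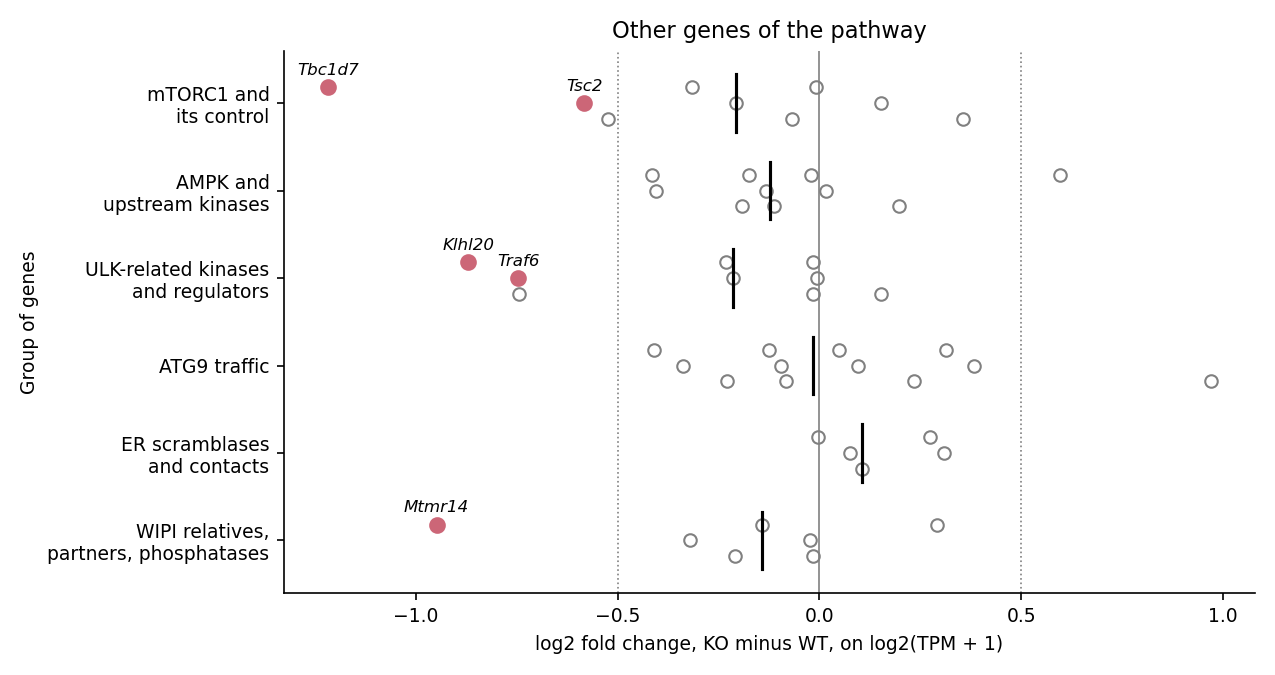
Log2 fold change of each of the 52 tested pathway genes, KO minus WT on log2(TPM + 1), by group of genes; filled points were called, open points were not, black bars are group medians and dotted lines mark the fold limits. The 5 called genes, Tbc1d7, Tsc2, Klhl20, Traf6 and Mtmr14, all lie to the left of -0.5.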

How the data were processed

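The authors aligned reads to mm10 with STAR per the methods of the study, while the submitters' processing notes list Bowtie 0.12.2 and build mm10. The counting program, its use of strand and the annotation are not given in the sources used here. The authors deposited TPM values for 26898 genes in 6 samples. They also deposited their own log2 fold changes and adjusted p-values, which were not used. All gene identifiers matched GENCODE release M21, whose positions and exon lengths were used. In each sample, 100% of the low values checked, multiplied by merged exon length, were whole multiples of what 1 read is worth (tolerance 0.05), and this gave the recovered reads. These describe depth and served limma voom as an alternative.

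Genes with a group mean of at least 1 TPM (14799) were fitted with limma 3.58.1 in R 4.3.3 (lmFit, eBayes with a variance trend, KO against WT, no covariate), on log2(TPM + 1) with a pseudocount of 1. Adjusted p-values are Benjamini-Hochberg over all tested genes. The thresholds and the 1 TPM filter are those of the study, and the filter was adopted after an earlier fit of all genes had been seen. DESeq2 and edgeR were not run here, and voom was the only alternative on reads. Ratios were tested in scipy 1.17.1 by exact permutation. The fit was tested on simulated data. A first simulation missed its target, so its spread was then taken from the data and its changed genes limited to mid-range levels. At a larger spread fewer of the changed genes were recovered.

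The 10 genes and the pathway and marker lists were chosen with earlier results of these data known. The genes named by rule are the 10 genes, Kansl1, each called pathway gene and the most abundant gene of each pathway group. Also named are markers, genes beside or overlapping the 10 genes, and pathway genes that failed the filter. The pathway genes under other observations were picked after their values had been seen. Promoter sequences are from RefSeq (GRCm38.p6). Alternatives covered the pseudocount, the filter, the scaling, the variance model, voom, the thresholds and leaving out each sample.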

Additional observations from a re-analysis of the deposited data

How the results depend on the processing

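No paired analysis was made, because no replicate number occurs in both groups and the sample labels used here name no litter. Of the 10 genes, 2 were called lower in the main analysis. This count became 0 when all genes were tested, 1 without a variance trend and 0 to 2 when 1 sample was left out. The count called higher, 0, became 1 (Ulk1) with a filter of 10 TPM, after median-of-ratios scaling, with voom and at an adjusted p under 0.05, and stayed 0 when any 1 sample was left out. Of the pathway genes, 5 were called lower. This became 1 when all genes were tested and 3 with a filter of 10 TPM, both of which change which genes are tested, and 2 to 4 when 1 sample was left out. The count of pathway genes called higher, 0, became 2 after scaling, 1 without a variance trend, 3 with voom and 2 at an adjusted p under 0.05. The log2 fold change of Atg2b, near 0 in the main analysis, turned sign after scaling (0.091), with voom (0.096) and without WT 4, WT 5 or KO 3 (-0.060 to 0.047 over the 6 samples left out). That of Wipi2 turned in the same settings (0.093, 0.096, and -0.065 to 0.055). The other 8 genes kept their direction in all 12 alternatives. The 4 within-sample ratios kept their direction when 1 sample was left out: 0.25 to 0.40 for Ulk1/Ulk2, -0.25 to -0.16 for Atg2a/Atg2b, 0.04 to 0.09 for Wipi1/Wipi2 and 0.40 to 0.53 for Atg101/Atg13. Calls over all tested genes were lower in 84.7% in the main analysis and in 74.6% with voom. The number of genes called over the whole table was 1337 lower and 242 higher, against 286 and 55 when all genes were tested, 1824 and 621 with voom, and 617 and 141 without WT 5. The causes of these shifts were not tested.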

Other observations

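Some pathway genes missed the threshold in the main analysis but passed it under other settings. They were picked after their values had been seen. Atg9b, a relative of Atg9a, measured 0.344, 0.896 and 0.588 TPM in WT 4, WT 5 and WT 8 and 2.02, 2.28 and 2.07 TPM in KO 3, KO 7 and KO 10. All KO samples lay above all WT samples, with a log2 fold change of 0.97 (limma, adjusted p = 0.00624) that was called higher after median-of-ratios scaling, without a variance trend and with voom. The fold change was 1.72 with a pseudocount of 0.1 and 1.96 with voom. In KO cells its level was still well below that of Atg9a. Prkag1, a regulatory subunit of AMPK, measured 4.30 ± 0.209 TPM (SD, n = 3) in WT and 7.03 ± 0.773 TPM in KO (fold change 0.60, limma adjusted p = 0.00823) and was called higher after scaling and with voom. Stk36, a relative of the ULK kinases, measured 2.29 ± 0.0388 TPM in WT and 0.966 ± 0.139 TPM in KO (fold change -0.75, limma adjusted p = 0.010) and was called lower in the same settings, with a fold change of -1.14 under voom, and without a variance trend. Mtor measured 20.3 ± 0.881 TPM in WT and 13.9 ± 1.97 TPM in KO, with a fold change of -0.52 (limma adjusted p = 0.0125) that was called lower with a filter of 10 TPM (adjusted p = 0.00246) and at an adjusted p under 0.05, but not after scaling, where the fold change was -0.43.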
